A study of Mus musculus with 9 samples.

Results

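The genes described here encode the enzymes and transporters of glycolysis and the genes that cells switch on when oxygen is scarce, in mouse embryonic stem cells with and without knockdown of Apela, whose product is a small secreted hormone acting on the apelin receptor. The members were a list of 36 genes, and each was read from its brightest probe set with that single gene symbol in the platform annotation. On that rule 33 of the 36 were measured, among 19938 genes tested: 14 glycolytic enzymes, 4 transporters of glucose or lactate, 2 regulators of flux, 12 hypoxia-induced genes and Hif1a, which encodes the oxygen-regulated subunit of the factor that drives them. Gapdh, Gpi1 and Eno1 had no probe set of their own under the rule and were not analysed here.

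The cells were R1E, an established line of mouse embryonic stem cells, and their RNA was read on Affymetrix arrays. The groups were cells transduced with a lentiviral hairpin RNA against Apela, shApela #1 or shApela #2, and cells transduced in the same way with a hairpin against luciferase, shLuc. All groups shared a culture medium that held serum (15%) together with leukemia inhibitory factor (1000 units/ml), and none received a drug. Each group had 3 arrays, 9 in all. Nothing in the labels tells separate transductions or cultures from repeats of 1, so the p-values measure the spread between these samples, which may be technical.

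Glycolysis turns glucose into pyruvate in the cytosol, and lactate dehydrogenase turns pyruvate into lactate. Hypoxia-inducible factor (HIF) is stable when oxygen is low, because the prolyl hydroxylases that mark its alpha subunit for destruction need oxygen. It then raises the transcription of glucose transporters, most glycolytic enzymes, and genes of angiogenesis, mitophagy and collagen modification. Mouse embryonic stem cells in serum and leukemia inhibitory factor use both glycolysis and respiration.

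Apela was lower with both hairpins, at 9.70 ± 0.06 in shApela #1 and 9.72 ± 0.14 in shApela #2, against 11.30 ± 0.10 in shLuc (log2 level, mean ± SD, n = 3 each), or 32.9% and 33.4% of the shLuc signal. All 12 measured markers of embryonic stem cells lay above the median probe set of the table, 7.06. Their mean log2 level per array spanned 11.41 to 11.43 in shApela #1, 11.44 to 11.51 in shApela #2 and 11.46 to 11.47 in shLuc, so every shApela #1 array lay below every shLuc array. Lin28a, an RNA-binding protein of stem cells, was the 1 marker that passed a test, between the hairpins (0.948% of all genes). It is named after its values were seen. It averaged 9.77 ± 0.07 in shApela #1, 10.27 ± 0.14 in shApela #2 and 10.21 ± 0.08 in shLuc (SD, n = 3 each). Its difference was -0.44 between shApela #1 and shLuc (adjusted p = 0.064 by limma, and 0.0119 in a blocked fit, which adds the replicate number as a term) and 0.50 between shApela #2 and shApela #1 (adjusted p = 0.0266). Without Lin28a the stem cell markers averaged 11.56 to 11.59 in shApela #1, 11.54 to 11.63 in shApela #2 and 11.57 to 11.59 in shLuc, and the groups overlapped. Of the 11 measured fibroblast feeder markers 5 lay above the median probe set, and their mean per array spanned 6.40 to 6.49 in shApela #1, 6.47 to 6.64 in shApela #2 and 6.42 to 6.49 in shLuc. Markers of primitive endoderm (4 of 10 above), primitive streak and mesoderm (1 of 7), neuroectoderm (3 of 7) and trophectoderm (5 of 10) had array means that overlapped between each hairpin group and shLuc. The third shApela #2 array stood apart from the rest, with an interquartile range of 3.29 where the others had 3.50 to 3.59, and its bright genes read low and its dim genes high relative to the other 8 arrays (Spearman -0.443 across genes). In whole cultures, fewer cells that express a gene and less RNA of it per cell cannot be told apart.

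Of the 33 members, 1 passed the test with shApela #1 and it fell: Hif1a. Over all genes 0.336% passed in this comparison, and 0.196% passed and fell. At an unadjusted p under 0.05 there were 4 members (7.69% of all genes), and the shApela #1 and shLuc arrays did not overlap for 5 (13.7% of all genes), 4 lower (5.61%) and 1 higher (8.05%). Hif1a measured 10.59, 10.56 and 10.63 on the 3 shApela #1 arrays, 10.94, 10.82 and 10.94 on the shApela #2 arrays and 10.89, 10.86 and 10.94 on the shLuc arrays, as log2 levels. Every shApela #1 array lay below every other array, and shApela #2 and shLuc overlapped. The difference between shApela #1 and shLuc was -0.30 on the log2 scale (SE 0.05, 95% interval -0.41 to -0.19, adjusted p = 0.0494 by limma), which left 81.2% of the shLuc signal. The size lay between -0.32 and -0.28 when values were renormalized or single shApela #1 or shLuc arrays were left out. The rest of the 19 alternatives could not change the size. The adjusted p rested near the threshold. It was 0.0644 with array medians set equal, and it lay between 0.0615 and 0.245 when any array but the third shApela #2 array was left out. The stem cell marker Lin28a was also lowest in shApela #1, and its part in this result was not tested.

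Slc2a1, which encodes the glucose transporter GLUT1 and is a HIF target, had a difference of the same size. Its log2 levels were 12.15, 12.32 and 12.31 in shApela #1, 12.50, 12.57 and 12.56 in shApela #2, and 12.50, 12.59 and 12.58 in shLuc. As with Hif1a, the shApela #1 arrays lay below all others. The difference between shApela #1 and shLuc was -0.30 (SE 0.05, 95% interval -0.42 to -0.17), or 81.5% of the shLuc signal. It did not pass on all arrays (adjusted p = 0.0757 by limma), and it passed in the blocked fit (adjusted p = 0.0263). Slc2a3, the glucose transporter GLUT3, had a difference of 0.00 (95% interval -0.11 to 0.11) with shApela #1 and mean levels of 12.63 in shApela #1, 12.61 in shApela #2 and 12.63 in shLuc. Its value was the same, 12.6335, on all 3 shApela #1 arrays and on the first shLuc array. Equal values on different arrays occurred in other genes too. Slc2a1 read 12.5029 on the first shApela #2 and first shLuc arrays. Apela read 9.79395 on the first and second shApela #2 arrays. What made such values identical, and whether those of Slc2a3 could show a change, was not tested.

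**Figure D1:**
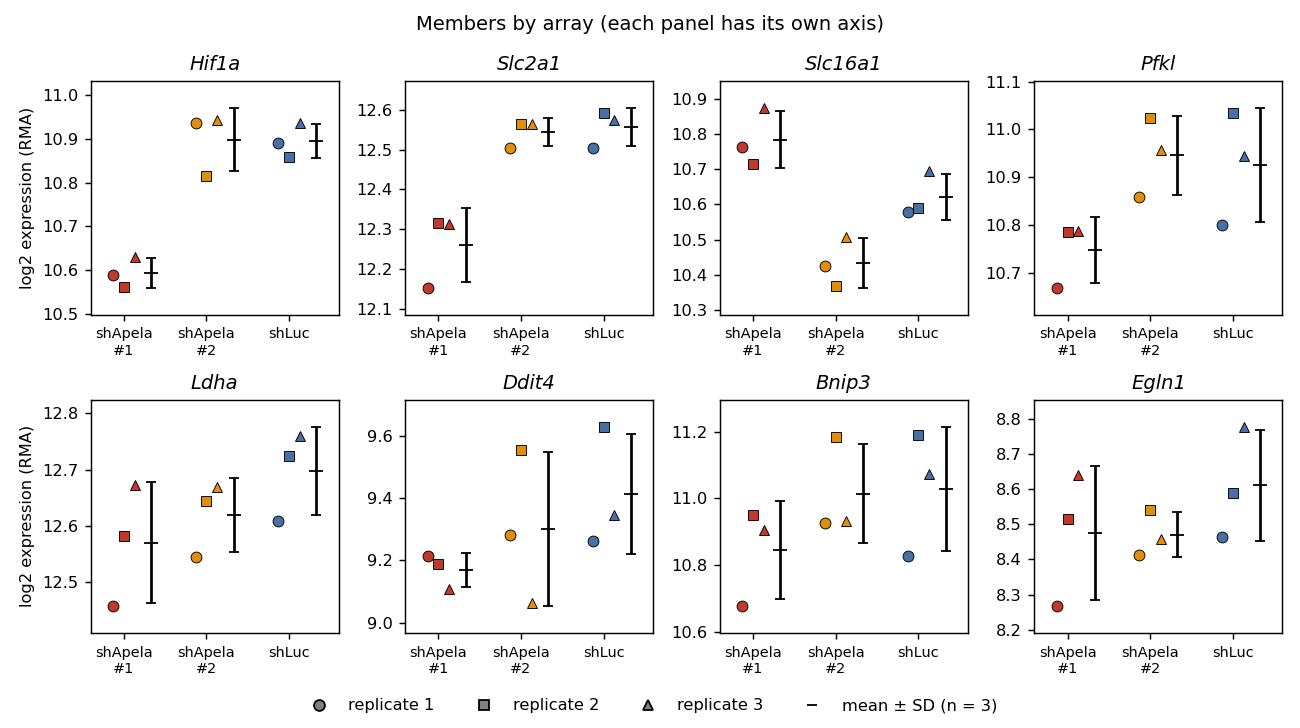
Log2 RMA expression of 8 members on each of the 9 arrays, with 1 panel and axis per gene, points shaped by replicate number, and bars for the group mean ± SD (n = 3). Hif1a and Slc2a1 lie lower on all 3 shApela #1 arrays than on the other 6, Slc16a1 lies highest in shApela #1 and lowest in shApela #2, and Ldha, Ddit4, Bnip3 and Egln1 differ between arrays of 1 group by as much as between groups.

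The promoters of Hif1a, Slc2a1, the lactate transporter gene Slc16a1 and Ldha are shown because HIF binds DNA at a short core. Ldha encodes a lactate dehydrogenase subunit and is a textbook HIF target. The arrays of Hif1a, Slc2a1 and Slc16a1 did not overlap between the hairpins. Those of Pfkl and Pfkp, which encode phosphofructokinase subunits, did not overlap either. Their promoters, not shown, held 0 matches to the motif given next. The motif searched was ACGTG on both strands (read as CACGT on the other strand), and CACGTG holds an overlapping match on each strand. Other forms of the core, such as GCGTG, were not searched and are not in capitals. Sequences are from RefSeq, build GRCm38.p6, plus strand, 5′ to 3′, and cover the 250 bases before an annotated start, with the motif in capitals. Hif1a has 3 matches (chr12:73907617-73907866), Slc2a1 has 1 (chr4:119108495-119108744), Slc16a1 has 2 (chr3:104638414-104638663), and Ldha has 5 at the start with the most matches of its 2 (chr7:46845554-46845803).
Hif1a: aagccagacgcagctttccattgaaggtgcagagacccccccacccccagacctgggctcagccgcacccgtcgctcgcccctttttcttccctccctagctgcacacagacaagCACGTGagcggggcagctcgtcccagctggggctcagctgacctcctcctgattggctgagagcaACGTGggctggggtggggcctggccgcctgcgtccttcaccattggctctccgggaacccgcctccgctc
Slc2a1: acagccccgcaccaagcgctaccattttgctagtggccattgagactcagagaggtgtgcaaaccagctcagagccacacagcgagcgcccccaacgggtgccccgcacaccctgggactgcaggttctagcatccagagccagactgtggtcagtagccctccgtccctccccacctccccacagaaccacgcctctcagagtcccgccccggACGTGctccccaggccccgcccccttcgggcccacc
Slc16a1: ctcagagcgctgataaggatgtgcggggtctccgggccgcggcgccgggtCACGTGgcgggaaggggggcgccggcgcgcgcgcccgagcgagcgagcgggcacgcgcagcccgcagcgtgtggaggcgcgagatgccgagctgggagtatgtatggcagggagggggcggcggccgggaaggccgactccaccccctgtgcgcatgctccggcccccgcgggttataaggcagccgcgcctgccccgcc
Ldha: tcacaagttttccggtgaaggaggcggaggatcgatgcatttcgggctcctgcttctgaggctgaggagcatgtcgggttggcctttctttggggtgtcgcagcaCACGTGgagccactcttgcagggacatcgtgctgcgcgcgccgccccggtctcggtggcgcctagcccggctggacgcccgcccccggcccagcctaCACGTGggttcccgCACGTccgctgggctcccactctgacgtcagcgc
The table held promoters for 30 of the 33 members, and Slc2a3, Bnip3l and Ndrg1 were not among them. The motif was present at 1 start or more of 21 of these 30 genes (70.0%), and of 4998 of all 27025 genes (18.5%). Counted by start, 24 of 44 had it, and 16.6% of all 32851. The members were listed for glycolysis and the response to hypoxia, so a higher share among them says nothing about these arrays. The 27025 genes were not limited to those measured here. Among glycolytic enzymes 7 of 14 genes had it, and among hypoxia-induced genes 9 of 10. A match is a string of letters and does not show that HIF binds there. The promoter of Tpi1 or Pfkp, without a match in this window, can hold other forms of the core or sites elsewhere.

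The 12 hypoxia-induced genes all lay below their shLuc mean with shApela #1, and 0 of them passed the test. Their median difference was -0.11 on the log2 scale, with a range from -0.24 to -0.05, beside a median of 0.01 over all genes, of which 45.5% lay below 0. The smallest adjusted p among the 12 was 0.794 by limma, and 0.203 in the blocked fit. The median depended on single arrays: it was -0.0533 without the second shLuc array, -0.0596 without the first shApela #1 array, where 10 of the 12 genes stayed below 0, -0.169 without the second shApela #1 array and -0.166 without the first shLuc array.

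Ddit4, an inhibitor of the growth kinase mTORC1 that hypoxia and other stresses induce, was the 1 hypoxia-induced gene whose shApela #1 and shLuc arrays did not overlap. Ddit4 measured 9.21, 9.19 and 9.11 in shApela #1, 9.28, 9.56 and 9.06 in shApela #2, and 9.26, 9.63 and 9.35 in shLuc. Its difference with shApela #1 was -0.24 (SE 0.13, adjusted p = 0.794 by limma), and the shApela #2 arrays spanned nearly the whole range of the other groups.

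Bnip3, a mitophagy receptor, measured 10.68, 10.95 and 10.90 in shApela #1, 10.93, 11.19 and 10.93 in shApela #2, and 10.83, 11.19 and 11.07 in shLuc. The groups overlapped, and the difference of -0.19 with shApela #1 (95% interval -0.44 to 0.07) was close to the spread of arrays within a group (pooled SD 0.16). Its relative Bnip3l had a difference of -0.05. Ankrd37, a small ankyrin repeat protein induced by HIF, measured 7.05, 7.27 and 7.06 in shApela #1, 7.18, 7.25 and 7.22 in shApela #2, and 7.20, 7.35 and 7.16 in shLuc, with a difference of -0.11 with shApela #1. Its groups overlapped as well. Egln1, the main prolyl hydroxylase that marks HIF alpha subunits, measured 8.27, 8.52 and 8.64 in shApela #1, 8.41, 8.54 and 8.46 in shApela #2, and 8.46, 8.59 and 8.78 in shLuc. The groups overlapped, and both hairpins had a difference of -0.14, with intervals from -0.37 to 0.10 for shApela #1 and from -0.38 to 0.10 for shApela #2.

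The remaining hypoxia-induced genes differed from shLuc by -0.16 to -0.05 with shApela #1. P4ha2 (-0.16) and P4ha1 (-0.12) encode subunits of the prolyl hydroxylase of collagen, Vegfa (-0.10) the angiogenic growth factor, and Ndrg1 (-0.10) a stress-induced cytosolic protein. Egln3 (-0.07) is another HIF prolyl hydroxylase, Kdm3a (-0.07) a histone demethylase, and Car9 (-0.05) a carbonic anhydrase of the cell surface. Car9 is a sensitive marker of hypoxia and was the 1 member whose mean lay below the median probe set, at 5.83 in shApela #1, 5.82 in shApela #2 and 5.88 in shLuc.

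The 14 glycolytic enzymes had a smaller median difference with shApela #1 than the hypoxia-induced genes, and the difference between these classes was not tested. Of the 14, 11 lay below 0 and 3 above, with a median of -0.036 and a range from -0.18 to 0.28, and 0 passed (smallest adjusted p = 0.556 by limma). Without the second shLuc array the median was -0.00209 and 7 of 14 lay below 0, and without the first shApela #1 array it was -0.00311, again with 7 below.

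Pfkl, the liver-type subunit of phosphofructokinase, the committed step of glycolysis, was the enzyme with the smallest p and the 1 whose arrays did not overlap. It measured 10.67, 10.79 and 10.79 in shApela #1, 10.86, 11.02 and 10.96 in shApela #2, and 10.80, 11.04 and 10.94 in shLuc. The highest shApela #1 array lay just under the lowest shLuc array, and the difference was -0.18 (SE 0.07, adjusted p = 0.556 by limma, 0.0914 in the blocked fit). The other phosphofructokinase subunits differed by 0.11 (Pfkm, the muscle type) and -0.03 (Pfkp, the platelet type).

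The lactate dehydrogenase subunits had differences of opposite sign with shApela #1, and neither passed. Ldha measured 12.46, 12.58 and 12.67 in shApela #1, 12.55, 12.64 and 12.67 in shApela #2, and 12.61, 12.72 and 12.76 in shLuc, a difference of -0.13 with shApela #1 (95% interval -0.28 to 0.02). The 3 groups overlapped. Ldhb, the subunit that is not a HIF target, had the largest positive difference of the list, 0.28, with an interval from -0.12 to 0.67 and a pooled SD of 0.25 within groups.

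Enzymes of the middle and lower part of the pathway had narrow intervals around 0. With shApela #1, Aldoa, an aldolase, differed by -0.04 (95% interval -0.13 to 0.06), Pgk1, phosphoglycerate kinase, by -0.03 (-0.14 to 0.08), Pgam1, phosphoglycerate mutase, by -0.01 (-0.12 to 0.10) and Pkm, pyruvate kinase, by -0.01 (-0.11 to 0.09). The isozyme genes Aldoc (-0.05) and Eno2 (0.12), an aldolase and an enolase best known from neurons, had wider intervals (-0.57 to 0.48 and -0.37 to 0.62), and replicate 3 read lowest in every group. Hk2, a hexokinase that HIF induces, differed by -0.10 with shApela #1 and -0.04 with shApela #2.

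The value of Hk1, the hexokinase that starts glycolysis in most cells, depends on which probe set stands for it. Its brightest probe set measured 12.70 in shApela #1, 12.69 in shApela #2 and 12.75 in shLuc, and is annotated to 1 sequence record. All 16 probe sets that the annotation assigns to Hk1 together with the ribosomal protein gene Rpl17 list that same record, and they averaged 11.67 to 12.71. The other Hk1 probe set, annotated to 8 records, measured 9.08 in shApela #1, 9.06 in shApela #2 and 9.10 in shLuc. Both gave differences close to 0: -0.05 and -0.06 from the brightest and -0.02 and -0.04 from the other, with shApela #1 and shApela #2 in that order.

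**Figure D2:**
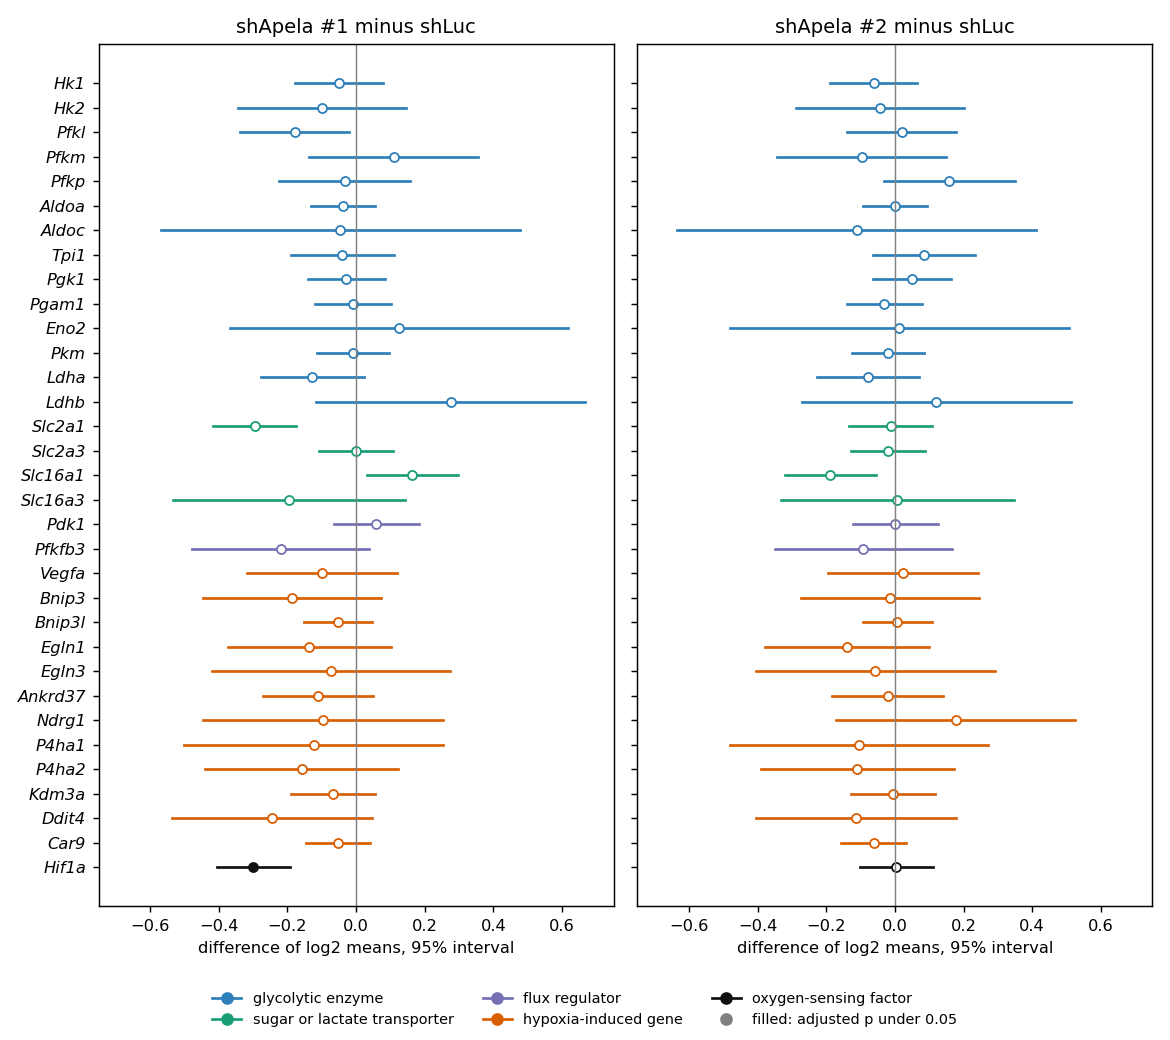
Difference of log2 means from shLuc with its 95% interval for the 33 measured members, shApela #1 on the left and shApela #2 on the right, coloured by class, with filled points for an adjusted p under 0.05. Hif1a with shApela #1 is the 1 filled point at -0.30, all 12 hypoxia-induced genes lie left of 0 in that panel and 9 of 12 in the other, and most intervals cross 0.

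With shApela #2, 0 of the 33 members passed the test, where 0.015% of all genes did, and 1 member had an unadjusted p under 0.05 by limma (5.77% of all genes) and arrays that did not overlap with shLuc (10.3% of all genes). That member was Slc16a1, which encodes the monocarboxylate transporter MCT1 that carries lactate and pyruvate across the cell membrane. It measured 10.76, 10.72 and 10.87 in shApela #1, 10.42, 10.37 and 10.51 in shApela #2, and 10.58, 10.59 and 10.70 in shLuc. The 3 groups did not overlap with each other: shApela #2 was lowest, shLuc in the middle and shApela #1 highest. The differences from shLuc were 0.16 with shApela #1 (SE 0.06, adjusted p = 0.475 by limma) and -0.19 with shApela #2 (SE 0.06, adjusted p = 0.680), so neither passed. Slc16a3, the lactate exporter MCT4 and a HIF target, differed by -0.20 with shApela #1 (95% interval -0.53 to 0.14) and 0.01 with shApela #2.

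Hif1a and Slc2a1 lay at their shLuc levels in shApela #2. The difference of Hif1a was 0.00 (95% interval -0.10 to 0.11) and that of Slc2a1 -0.01 (-0.13 to 0.11). Of the 12 hypoxia-induced genes 9 lay below 0, with a median of -0.039, and of the 14 enzymes 8, with a median of -0.010, where 42.5% of all genes did. Among the genes at or above the median probe set the share below 0 was 61.9%. The median of the hypoxia-induced genes moved to either side with single arrays. It was 0.0039 without the third shApela #2 array (5 of 12 below 0), 3.83e-05 without the first shApela #2 array (6 below) and 0.0226 without the second shLuc array (3 below). It was -0.0965 without the second shApela #2 array, -0.0789 without the first shLuc array and -0.0797 with array medians set equal, each with 11 of 12 below.

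Among the enzymes, those with the smallest p in shApela #2 lay on both sides of shLuc. Pfkp measured 11.29, 11.53 and 11.33 in shApela #2 and 11.09, 11.34 and 11.24 in shLuc, a difference of 0.16 (SE 0.08, adjusted p = 0.680 by limma). Tpi1, triosephosphate isomerase, measured 11.91, 12.00 and 12.03 in shApela #2 and 11.78, 11.95 and 11.95 in shLuc, a difference of 0.08. Ldha differed by -0.08. In each of these 3 the groups overlapped.

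The hypoxia-induced genes with the smallest p in shApela #2 were Car9, Egln1, Ndrg1 and P4ha2. Car9 measured 5.77, 5.88 and 5.81 in shApela #2 and 5.92, 5.87 and 5.85 in shLuc, a difference of -0.06. Ndrg1 measured 9.14, 9.47 and 9.38 in shApela #2 and 8.99, 9.24 and 9.23 in shLuc, a difference of 0.18, the highest of the list in this comparison. P4ha2 measured 7.52, 7.67 and 7.40 in shApela #2 and 7.50, 7.90 and 7.52 in shLuc, a difference of -0.11. All 4 overlapped with shLuc, and their adjusted p lay between 0.680 and 0.765 by limma.

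Setting the hairpins against each other, 2 members passed, where 0.948% of all genes did (0.356% higher and 0.592% lower in shApela #2). At an unadjusted p under 0.05 there were 5 members (12.9% of all genes), and for 5 the arrays of the hairpins did not overlap (17.6% of all genes). Hif1a was higher in shApela #2 (10.90 ± 0.07) than in shApela #1 (10.59 ± 0.03; SD, n = 3 each), by 0.30 (SE 0.05, adjusted p = 0.0265 by limma). Slc16a1 was lower in shApela #2 (10.43 ± 0.07) than in shApela #1 (10.78 ± 0.08), by a difference of -0.35 (SE 0.06, adjusted p = 0.0345 by limma). Slc2a1 differed by 0.28 (SE 0.05, adjusted p = 0.0534, blocked fit 0.0161) and Pfkl by 0.20 (SE 0.07, adjusted p = 0.282, blocked fit 0.044). In Apela itself the hairpins differed by 0.02 (95% interval -0.16 to 0.20). The call of Hif1a ended with array medians set equal (adjusted p = 0.0508), and the calls of Hif1a and Slc16a1 both ended in a fit of the 6 hairpin arrays alone (adjusted p = 0.118 and 0.125). Leaving out single arrays ended the call of Hif1a in 6 of 9 cases and that of Slc16a1 in 7 of 9, with largest adjusted p of 0.133 and 0.136, and kept the direction of both each time.

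Taking both hairpins together against shLuc, 0 of the 33 members passed (0.015% of all genes did), and Hif1a (-0.15) and Slc2a1 (-0.15) were the 2 members with an unadjusted p under 0.05 by limma (4.58% of all genes). For 0 members did both hairpins lie apart from shLuc on the same side (2.17% of all genes). In both genes the shApela #2 arrays overlapped with shLuc and the shApela #1 arrays did not. Both comparisons with shLuc share the shLuc arrays, so equal signs in them are not independent.

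Within each group the hypoxia-induced genes moved from array to array together. The second array was the highest of its group for 8 of the 12 in shApela #1, 12 of 12 in shApela #2 and 9 of 12 in shLuc. Over all genes the second array was the highest for 31.8% in shApela #1, 25.0% in shApela #2 and 33.5% in shLuc. It was the lowest for 0 of 12 in each group. For the glycolytic enzymes the second array was highest for 9 of 14 in shApela #2 and 9 of 14 in shLuc, and for 5 of 14 in shApela #1, where the third array also had 5. The median level of the 12 hypoxia-induced genes, relative to their shLuc means, was -0.19, -0.03 and -0.09 on the shApela #1 arrays, -0.10, 0.10 and -0.10 on the shApela #2 arrays, and -0.12, 0.14 and -0.02 on the shLuc arrays. The groups overlapped in this median, and the shLuc arrays alone spanned more than the difference between shApela #1 and shLuc. The labels give no culture or processing day for the replicate numbers, and what set the second arrays apart was not tested.

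**Figure D3:**
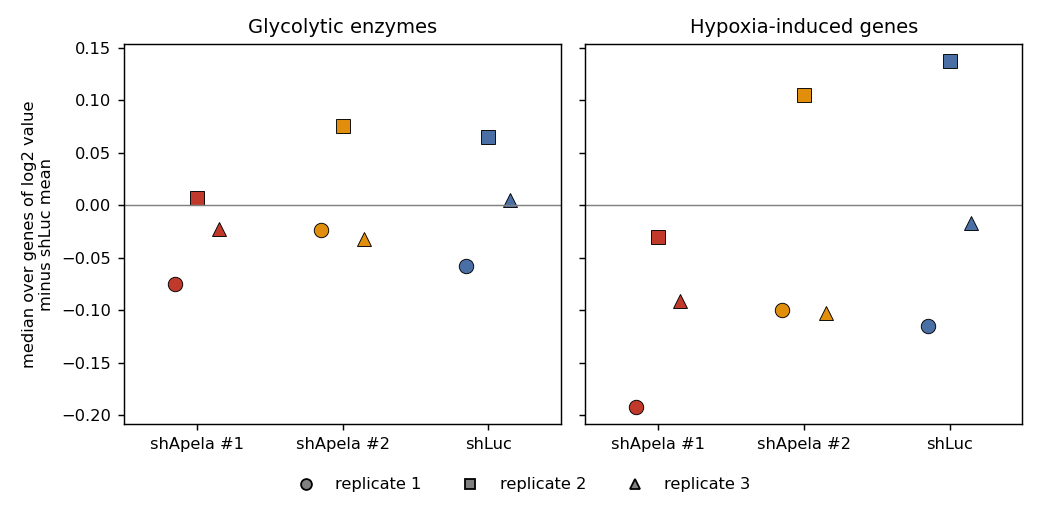
Median over genes of the log2 value minus its shLuc mean, for the 14 glycolytic enzymes and the 12 hypoxia-induced genes, with 1 point per array shaped by replicate number. The second array is the highest of each group in both panels, and for the hypoxia-induced genes shApela #1 lies below the like-numbered shLuc array in all 3 cases.

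When each shApela #1 array was set against the shLuc array of the same number, the hypoxia-induced genes had medians of -0.11, -0.09 and -0.08. Of the 12 genes 10 lay below in all 3 of these differences, as did 16.1% of all genes. For the enzymes the medians were -0.015, -0.040 and -0.007, and 5 of 14 lay below in all 3. For shApela #2 against shApela #1 the hypoxia-induced genes had medians of 0.11, 0.11 and -0.02, and 0 of 12 lay below in all 3, as did 19.5% of all genes. For shApela #2 against shLuc the medians were 0.016, -0.002 and -0.10, and 2 of 12 lay below in all 3 (16.7%), beside 13.6% of all genes. The last median in each of the comparisons with shApela #2 contains the shApela #2 array that stood apart. Whether the numbers pair the arrays is not known.

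The hypoxia-induced genes varied more within groups than the enzymes did, as a description with no test. The pooled within-group SD had a median of 0.15 over the hypoxia-induced genes, 0.089 over the enzymes and 0.080 over all genes. It was smallest for Aldoa (0.039), Car9 (0.040) and Bnip3l (0.046) and largest for Aldoc (0.34), Eno2 (0.32), Ldhb (0.25) and P4ha1 (0.24). Hif1a (0.051) and Slc2a1 (0.064) had small SDs beside Ddit4 (0.18). Pdk1, a kinase of the mitochondrial matrix that inhibits pyruvate dehydrogenase, varied little (0.066) and differed by 0.06 and 0.00 with shApela #1 and shApela #2. Outside the hypoxia-induced class, HIF targets were labelled as such for some members only, and those labels do not sort the members. Pfkfb3, which makes an activator of phosphofructokinase, measured 7.40, 7.61 and 7.65 in shApela #1, 7.59, 7.84 and 7.61 in shApela #2, and 7.60, 7.99 and 7.72 in shLuc, with overlapping groups and differences of -0.22 and -0.09 (pooled SD 0.16).

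**Figure D4:**
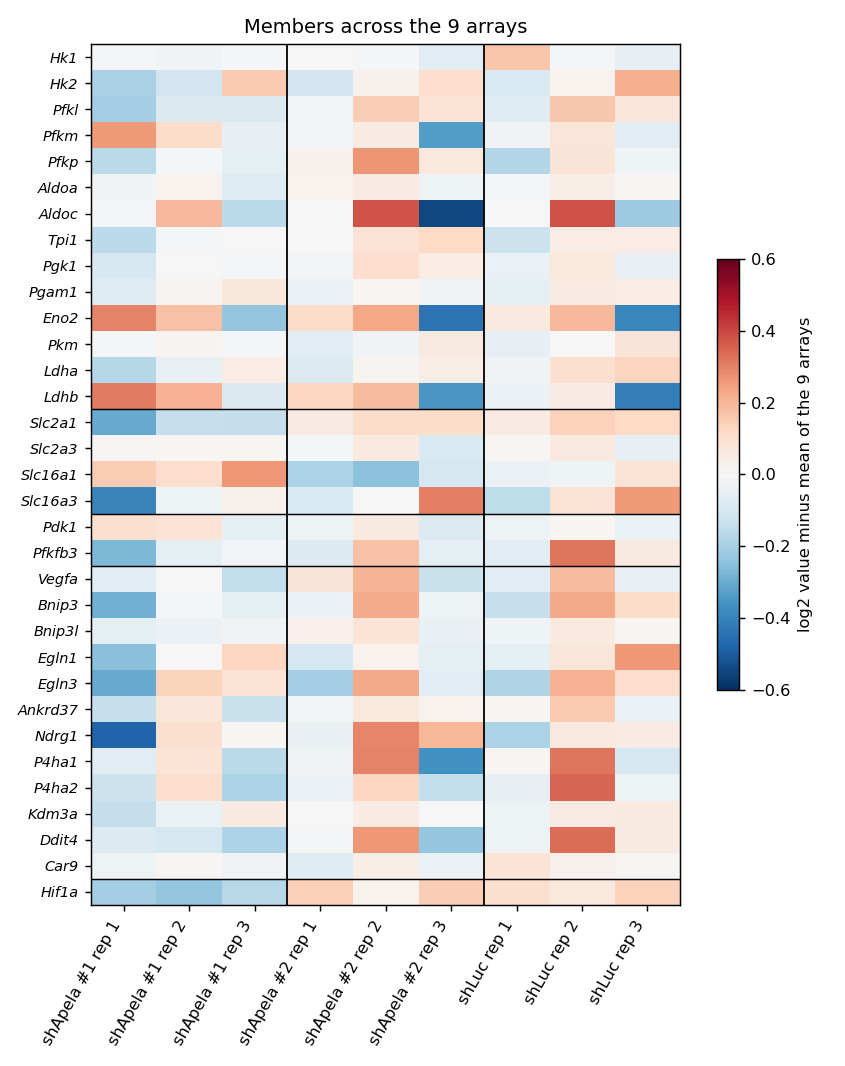
Log2 value minus the mean of all 9 arrays for the 33 members (rows, by class) on each array (columns, by group), where red is above and blue below that mean. Most hypoxia-induced genes are reddest on the second arrays of shApela #2 and shLuc, Hif1a and Slc2a1 are blue on the 3 shApela #1 arrays, and Aldoc, Eno2 and Ldhb are blue on the third arrays.

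Genes around the pathway were read from further lists. Of 14 measured genes that control HIF, 1 passed with shApela #1, where 0.336% of all genes did, and it rose. This was Os9, a lectin of the endoplasmic reticulum, at 8.62, 8.60 and 8.60 in shApela #1, 8.49, 8.49 and 8.49 in shApela #2, and 8.39, 8.39 and 8.41 in shLuc (0.21, SE 0.03, adjusted p = 0.0472 by limma). Its call ended when any array but the third shApela #2 array was left out, with array medians set equal, after a second quantile normalization, with an intensity trend or with only the arrays compared (adjusted p from 0.0552 to 0.252). Ep300, a coactivator that HIF recruits, differed by -0.17 with shApela #1 (adjusted p = 0.178) and -0.09 with shApela #2, and Arnt2, a partner subunit of HIF, by 0.14 with shApela #2 (adjusted p = 0.680). Epas1, which encodes another HIF alpha subunit, differed by -0.30 with shApela #1 (adjusted p = 0.226 by limma) and 0.07 with shApela #2. The hairpins differed in it by 0.37 (adjusted p = 0.0801 by limma). The list had medians of 0.03 with shApela #1 and 0.01 with shApela #2. With shApela #1, 11 of the 14 lay above 0 and 3 below, where 45.5% of all genes lay below. The arrays did not overlap with shLuc for 7 of the 14 (13.7% of all genes), 3 lower and 4 higher.

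Of 28 further hypoxia-induced genes 0 passed with either hairpin, where 0.336% of all genes did with shApela #1 and 0.015% with shApela #2. With each hairpin 19 of 28 lay below 0, with medians of -0.03 with shApela #1 and -0.01 with shApela #2. Over all genes 45.5% lay below 0 with shApela #1 and 42.5% with shApela #2. Insig2, an endoplasmic reticulum protein that restrains sterol synthesis, passed between the hairpins, where 0.948% of all genes did. It measured 8.14, 8.29 and 8.10 in shApela #1, 8.61, 8.82 and 8.55 in shApela #2, and 8.55, 8.68 and 8.71 in shLuc. It was higher in shApela #2 than in shApela #1 by 0.48 (SE 0.08, adjusted p = 0.0421 by limma), and its difference from shLuc was -0.47 with shApela #1 (adjusted p = 0.0754, blocked fit 0.0271) and 0.02 with shApela #2. The call between the hairpins held without the third shApela #2 array (adjusted p = 0.0396) and ended without any 1 of the others (0.0663 to 0.183), with array medians set equal (0.0628) and in a fit of the hairpin arrays alone (0.144). Car12, a carbonic anhydrase, differed by -0.44 with shApela #1 (adjusted p = 0.638).

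Of 19 further glycolysis genes, 28 genes of pyruvate entry and the citric acid cycle and 9 of the pentose phosphate pathway, 0 passed with either hairpin. The share of all genes that passed was 0.336% with shApela #1 and 0.015% with shApela #2. Their medians with shApela #1 were 0.01, 0.03 and 0.02, and with shApela #2 they were 0.02, -0.03 and -0.04. Those with the smallest p in shApela #1 were Pcx, pyruvate carboxylase, at -0.36 (adjusted p = 0.131, and 0.0447 without the third shApela #2 array or 0.0338 after a second quantile normalization), and Sucla2, a succinyl-CoA ligase subunit, at -0.29 (adjusted p = 0.284). Mpc1, a subunit of the mitochondrial pyruvate carrier, differed by -0.18 with shApela #1 and 0.17 with shApela #2, and the hairpins differed in it by 0.35 (adjusted p = 0.0564 by limma). Among the pentose phosphate genes the transketolase-like Tktl1 differed by -0.29 with shApela #1 (adjusted p = 0.614), and among the further glycolysis genes Ldhd, a D-lactate dehydrogenase, by 0.10 with each hairpin (adjusted p = 0.561 with shApela #1 and 0.680 with shApela #2).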

How the data were processed

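Biotin-labelled total RNA was hybridised to Affymetrix arrays. The deposited values are log2 expression per probe set, made by the authors with RMA in Partek 6.6, per the submitters' processing notes. Base 2 was inferred from how far the values extend. The RMA settings are not stated in the labels. Of 28853 probe sets 21775 carried 1 gene symbol, 1578 several and 5500 none, and 21684 matched a RefSeq gene ID. The brightest single-symbol probe set stood for each of 19938 genes. No further normalization or filter was applied. Groups were compared with limma 3.58.1 in R 4.3.3 (lmFit and eBayes on the 9 arrays together, residual df 6, prior df 2.72), with Benjamini-Hochberg adjustment over all genes and a threshold of 0.05. The script was tested on simulated data. Precision is limited by having 3 arrays per group.

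The members, lists and tests were chosen with earlier results of these data known. Named with every array were members past the threshold, and in each comparison with shLuc the 4 enzymes, transporters or regulators and the 4 hypoxia-induced genes with the smallest p. From other lists, genes past the threshold and some of those with the smallest p were named. The alternatives were a trend and robust prior, a filter on dim genes, a second quantile normalization, equal array medians, a block for the replicate number, a fit of the compared arrays alone, averaging of probe sets per gene, other thresholds and leaving out each array. Deviations of same-numbered arrays from their group means correlated at 0.44, 0.401 and 0.684 between shApela #1 and shLuc, at 0.178, 0.213 and 0.209 between shApela #2 and shApela #1, and at -0.0131, 0.673 and 0.47 between shApela #2 and shLuc. The fit reported had no term for the replicate number, and the blocked fit applied that term to all groups at once. Whether the numbers pair the arrays is not known, so blocked values stand beside the reported ones as an alternative.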

Additional observations from a re-analysis of the deposited data

Results flagged for a closer look

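Among the members, the further lists and the markers, 4 genes passed a direct test between the hairpins. Over all genes 189 of 19938 (0.948%) passed it. The level of Apela was similar with both hairpins. Slc16a1 was lower in shApela #2 than in shApela #1, with a difference of -0.35 on the log2 scale (adjusted p = 0.0345 by limma). Hif1a was higher in shApela #2 than in shApela #1 by 0.30 (adjusted p = 0.0265 by limma). Insig2 was higher in shApela #2 than in shApela #1 by 0.48 (adjusted p = 0.0421 by limma). The stem cell marker Lin28a was higher in shApela #2 than in shApela #1 by 0.50 (adjusted p = 0.0266 by limma). The call of Lin28a ended in a fit of the 6 hairpin arrays alone (adjusted p = 0.109) and when single arrays were left out, except the third array of shApela #2 or of shLuc (0.0542 to 0.133).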

How the results depend on the processing

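The count of members past the threshold with shApela #1, 1 in the fit reported, was 2 with a trend and robust prior, 2 with the replicate number as a block, 2 at a threshold of 0.1, 0 with array medians set equal, 0 at 0.01 and 0 to 1 when single arrays were left out. Between shApela #2 and shApela #1 the count, 2 as reported, was 4 with the replicate block, 1 with array medians set equal, 0 in a fit of only the arrays compared, 0 at 0.01 and 0 to 2 when single arrays were left out. It was 3, with Slc2a1 added, with a trend and robust prior, with dim genes left out and at a threshold of 0.1. With shApela #2, and with both hairpins together, it was 0 in every alternative run. No value named changed from a call in one direction to a call in the other. The median of the glycolytic enzymes with shApela #2, -0.010 as reported, was -0.050 with array medians set equal and -0.0319 to 0.033 when single arrays were left out. Reading Hk1 from its other probe set, and subtracting same-numbered arrays, were chosen after seeing the data. Over all genes, the count with shApela #1 was 67, between 3 without the second shApela #1 array and 190 with the replicate block, and between the hairpins it was 189, between 19 and 653 with the block. With 3 arrays per group, differences near 0.2 in genes that vary between arrays could not be resolved.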
